A study of Homo sapiens with 6 samples.

Results

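The 9 genes of the human UGT1A cluster, UGT1A1 and UGT1A3 to UGT1A10, were examined in HCCLM3 cells with and without PON1 overexpression. They were chosen by name out of the 20381 genes of the deposited table, with the PON1-OE against NC differences of these same 6 libraries already known, so every difference between the groups is given for them as a description without a test. HCCLM3 is a human hepatocellular carcinoma cell line with little PON1, an esterase and lactonase that liver cells secrete. In the PON1-OE group, a lentivirus had brought in the PON1 coding sequence, and the labels call this a stable overexpression. The NC group was the negative control, which the series' design text describes as carrying the lentivirus with an empty vector. Both groups therefore shared the same parental line and the same kind of virus, and each had 3 libraries of poly(A) RNA. The design text gives 15% serum and lysis 24 h after transfection for both groups, whereas the paper describes lines selected with puromycin. The sources used here do not state whether the 3 libraries of a group came from separate cultures.

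UGT1A enzymes sit in the membrane of the endoplasmic reticulum and attach glucuronic acid, donated by UDP-glucuronic acid, to bilirubin, bile acids, steroids and drugs, which makes them soluble enough for excretion. The locus is built in an unusual way. Each gene has a promoter and a first exon of its own, which encodes the part of the enzyme that binds the substrate, and every first exon is spliced to the same set of following exons, which encode the part that binds the sugar donor. UGT1A1 is the member that conjugates bilirubin in the liver, and inherited loss of it raises unconjugated bilirubin in the blood. UGT1A3, UGT1A4, UGT1A6 and UGT1A9 are known from liver, while UGT1A7, UGT1A8 and UGT1A10 are known mainly from the epithelium of the gastrointestinal tract.

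In the GENCODE v29 annotation of GRCh38 the cluster lies on the plus strand of chromosome 2, and the first exons follow each other in the order UGT1A8, UGT1A10, UGT1A9, UGT1A7, UGT1A6, UGT1A5, UGT1A4, UGT1A3 and UGT1A1. UGT1A8 (ENSG00000242366) runs from 233617645 to 233773310 and UGT1A10 (ENSG00000242515) from 233636454 to 233773305. UGT1A1 (ENSG00000241635) runs from 233760248 to 233773299, and its first exon ends only 5.88 kb before exon 2, against 148 kb for UGT1A8. In the reference transcript of every member, exons 2 to 5 start at 233767034, 233767849, 233768220 and 233772262. These shared exons make up 59.7% to 63.4% of each transcript, so a read that lies within them has the same sequence in all 9 genes. The share of 100-base windows found in only 1 member was 35.3% for UGT1A5, the lowest, and 41.8% for UGT1A6, the highest. The build used to make the table is not given in the sources used here, and 7 of the 9 deposited identifiers were found in GENCODE v29. UGT1A3 (deposited as ENSG00000288702) and UGT1A5 (ENSG00000288705) were matched by symbol.

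**Figure D1:**
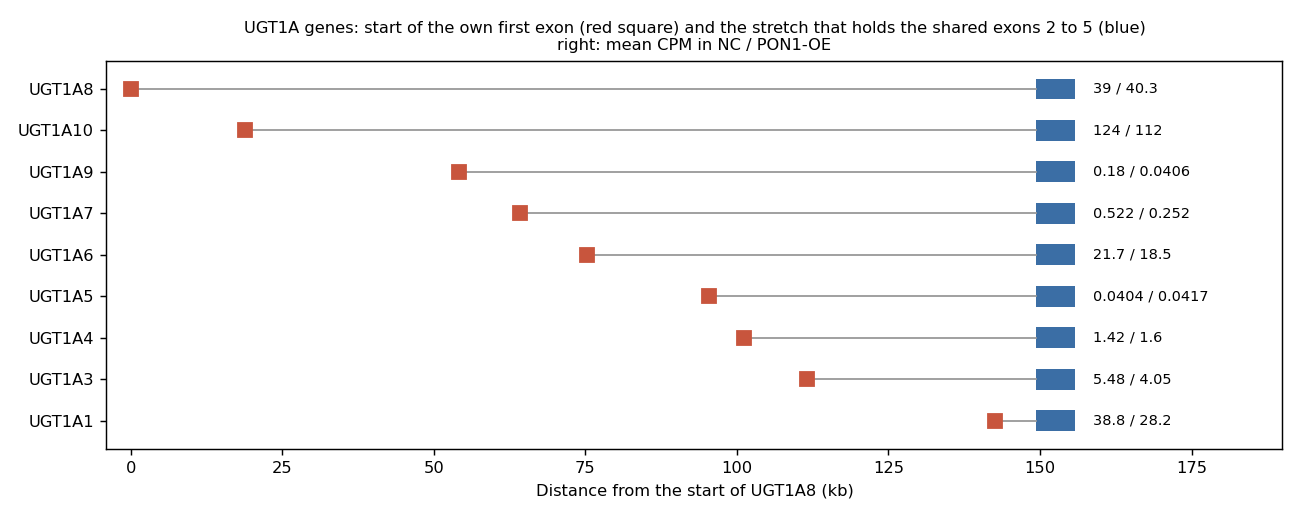
Position of the 9 UGT1A genes along the plus strand, in kb from the start of UGT1A8; red squares mark the start of each first exon, the blue box the stretch with the shared exons 2 to 5, and the numbers on the right give the mean TMM-normalized CPM in NC and in PON1-OE. UGT1A8 and UGT1A10 lie farthest from the shared exons and UGT1A1 lies nearest to them.

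The joints between first exon and exon 2 show what sets the transcripts apart. The last 30 bases of the first exon are in lower case and the first 30 bases of exon 2, identical in all 9 members, in capitals, 5′ to 3′ on the plus strand of chromosome 2. They are shown for the most abundant members and for UGT1A3, which together with UGT1A1 differed most between the groups among the 6 members that passed the filter on low counts.
UGT1A1: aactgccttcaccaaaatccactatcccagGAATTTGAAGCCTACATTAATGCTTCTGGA
UGT1A3: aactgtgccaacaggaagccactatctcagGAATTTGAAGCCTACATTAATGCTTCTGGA
UGT1A6: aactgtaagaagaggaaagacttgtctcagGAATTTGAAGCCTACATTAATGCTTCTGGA
UGT1A8: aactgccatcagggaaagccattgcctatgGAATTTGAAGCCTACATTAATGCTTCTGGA
UGT1A10: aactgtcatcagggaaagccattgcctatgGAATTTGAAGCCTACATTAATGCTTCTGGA

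The first exons are not equally distinct. UGT1A1 shared at most 63.8% of aligned first-exon bases with any other member, and UGT1A6 at most 57.3%. UGT1A8 and UGT1A10 were identical at 93.8% of aligned positions, UGT1A3 and UGT1A5 at 92.2%, and UGT1A8 and UGT1A9 at 91.0%. Reads of these near-identical genes could be divided between them by the counting step, so the values of UGT1A8, UGT1A10, UGT1A3, UGT1A4, UGT1A5, UGT1A7 and UGT1A9 carry that uncertainty beside the one from the shared exons. The 60 bases with the most mismatches between the first exons of UGT1A8 (chr2:233618000-233618059) and UGT1A10 (chr2:233636815-233636874) hold 10 of them, shown in capitals, and are shown because these abundant members differ most there.
UGT1A8: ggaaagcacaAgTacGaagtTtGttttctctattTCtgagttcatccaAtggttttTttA
UGT1A10: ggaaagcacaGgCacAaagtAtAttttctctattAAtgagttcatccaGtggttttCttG

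The 6 libraries held 15706672 to 17948383 estimated counts, and PON1 had 0, 2 and 3 counts in the NC libraries against 155, 181 and 167 in the PON1-OE libraries, so the labels matched the overexpressed gene. In PON1-OE its level was 9.44, 11.3 and 10.7 CPM, below the median of 28.8 CPM of the genes tested. The labels also call the line hepatocyte. Of 7 hepatocyte markers, ALB, AFP, APOA1, TTR, SERPINA1 and FGB stayed at or below 1.7 CPM in every library and only TF was higher, at 20.1 to 23.2 CPM in NC and 17.9 to 19.9 in PON1-OE, without overlap (log2FC −0.16, adjusted p = 0.528 in edgeR). The summed level of this list was 21.8 to 26.2 CPM in NC and 20 to 22 in PON1-OE. Among 5 intestinal epithelium markers, LGALS4 and CDH17 were abundant whereas CDX1 had no count in any library. MUC2 stayed at or below 0.128 CPM, and VIL1 was at 20.2 to 32.4 CPM over all libraries. LGALS4 was at 447 to 469 CPM in NC and 492 to 515 in PON1-OE, without overlap (log2FC 0.13, adjusted p = 0.117 in edgeR), and CDH17 at 229 to 248 CPM over all libraries. The summed level of this list was 709 to 750 CPM in NC and 748 to 772 in PON1-OE, and nearly all of it was LGALS4 and CDH17. The summed level of 5 biliary markers was 330 to 345 CPM in NC and 372 to 379 in PON1-OE, without overlap, and nearly all of it was SPP1, which was higher in PON1-OE (log2FC 0.17, adjusted p = 0.0231 in the edgeR quasi-likelihood test). Whether any of these levels had a part in the UGT1A values was not tested. In RNA from a whole culture, fewer cells of a type and less RNA per cell cannot be told apart.

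Summed over its 9 genes, the cluster had 3758, 3999 and 4159 estimated counts in NC (replicates in the order 1, 2 and 3, as throughout) against 3304, 3519 and 3047 in PON1-OE. As CPM, the count relative to the TMM-scaled library total, this was 228, 221 and 244 in NC against 201, 220 and 195 in PON1-OE. The groups did not overlap, but NC replicate 2 and PON1-OE replicate 2 lay next to each other. The mean was 231 ± 11.8 CPM (SD, n = 3) in NC and 205 ± 13.2 CPM (SD, n = 3) in PON1-OE, a fitted log2FC of −0.17 with a standard error of 0.0476. The sum took 0.0194% to 0.0244% of a library and ranked 902 by mean CPM among the 11958 genes that passed the filter on low counts.

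Of all 54 member values, 85.2% were not whole numbers, against 10.5% of all values in the table. The sum over the 9 members was within 0.01 of a whole number in all 6 libraries. The members' fractions thus added up to whole counts within the cluster, and the sum does not depend on how counts were divided among its genes.

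Of the 9 members, 6 passed the filter on low counts, and 4 of these had a fitted log2FC below 0, beside 51% of all genes tested. In 4 of the 9, every PON1-OE library lay below every NC library. They were UGT1A1, UGT1A3, UGT1A6 and UGT1A7, and the first 3 of them passed the filter. Among all genes tested, 7.74% showed this ordering. Since the genes were chosen with this contrast known, nothing is read from these shares.

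**Figure D2:**
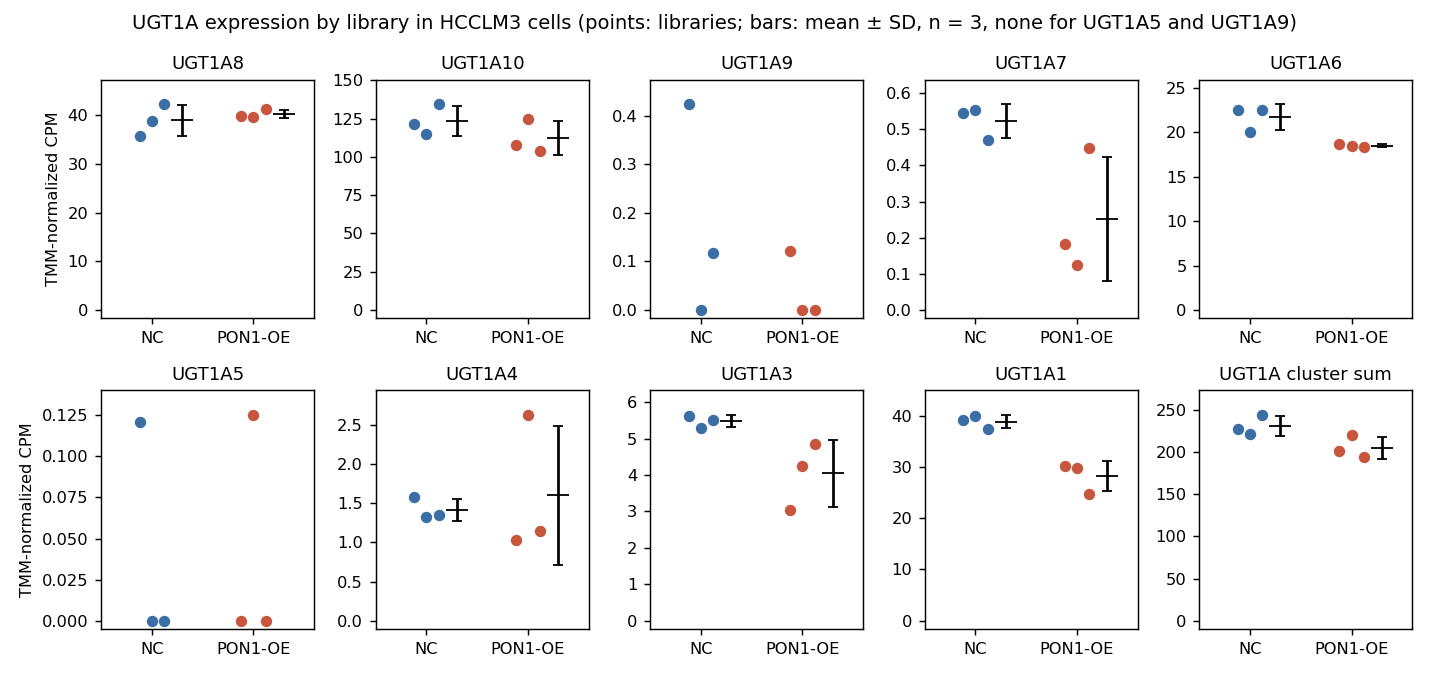
TMM-normalized CPM of each UGT1A gene and of the cluster sum (vertical axes, each with its own scale) in the 3 NC (blue) and 3 PON1-OE (red) libraries; points are libraries, bars the mean ± SD, left out for UGT1A5 and UGT1A9, whose libraries include values of 0. UGT1A1 sits at 37.4 to 39.9 in NC and 24.8 to 30.1 in PON1-OE, while the ranges of UGT1A8 and UGT1A10 overlap.

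UGT1A1, the bilirubin-conjugating enzyme, had the lower level in PON1-OE. Its estimated counts were 645, 722 and 637 in NC against 494, 476 and 388 in PON1-OE, which corresponds to 39.1, 39.9 and 37.4 CPM against 30.1, 29.8 and 24.8 CPM. The highest PON1-OE library stayed well below the lowest NC library. The mean was 38.8 ± 1.303 CPM (SD, n = 3) in NC and 28.2 ± 2.98 CPM (SD, n = 3) in PON1-OE, a fitted log2FC of −0.46 with a standard error of 0.0773. With each library left out in turn the value stayed between −0.50 and −0.37. These libraries measure RNA, and bilirubin conjugation itself was not measured.

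UGT1A3, which acts on bile acids and estrogens, was the other member with a difference of this size among those that passed the filter on low counts. Its estimated counts were 93.0, 96.3 and 93.8 in NC against 49.7, 68.1 and 76.2 in PON1-OE. NC libraries were close together, whereas the PON1-OE libraries spread widely below them. The means of 5.48 ± 0.164 and 4.05 ± 0.921 CPM (SD, n = 3 each) gave a fitted log2FC of −0.44 (standard error 0.177), and without PON1-OE replicate 1, the lowest library, it was −0.26, over 1.5 times smaller.

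UGT1A6 conjugates small planar phenols. It had 372, 362 and 384 estimated counts in NC against 307, 295 and 288 in PON1-OE, in CPM 22.5, 20.01 and 22.5 against 18.7, 18.4 and 18.4. PON1-OE libraries were nearly equal and all below NC. The fitted log2FC was −0.23 (standard error 0.0845), which stayed between −0.28 and −0.20 with single libraries left out.

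UGT1A10, a glucuronosyltransferase of the intestine, was the most abundant member. Its estimated counts were 2012, 2081 and 2290 in NC against 1775, 1997 and 1624 in PON1-OE, or 122, 115 and 134 CPM against 108, 125 and 104 CPM. Here the groups overlapped, because PON1-OE replicate 2 exceeded NC replicates 1 and 2. The fitted log2FC was −0.14 (standard error 0.0627). It was −0.22 without PON1-OE replicate 2 and −0.08 without NC replicate 3, so single libraries moved it by over 1.5 times.

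UGT1A8, whose first exon is nearly that of UGT1A10, overlapped between the groups. It had 592, 703 and 721 estimated counts in NC against 656, 636 and 646 in PON1-OE, and its CPM of 35.9, 38.9 and 42.3 in NC enclosed the 39.9, 39.8 and 41.2 of PON1-OE. The fitted log2FC of 0.05 (standard error 0.0697) was smaller than its error and turned to −0.0084 without NC replicate 1. It reached 0.11 without NC replicate 3.

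UGT1A4, which glucuronidates amines, had 25.8, 24.4 and 23.4 estimated counts in NC against 17, 41.7 and 17.8 in PON1-OE. PON1-OE replicate 2 was the highest of the 6 libraries and the other PON1-OE libraries were the lowest. Its fitted log2FC of 0.18 (standard error 0.346) became −0.37 without PON1-OE replicate 2, so its direction rests on that library.

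The remaining members were near the limit of detection, for which a floor of 3 counts equals 0.166 to 0.192 CPM depending on the library and covers counting error only. UGT1A7, known from the stomach, had 9.16, 10.5 and 8.22 estimated counts in NC against 3.4, 2.42 and 7.42 in PON1-OE. All PON1-OE values were lower, but PON1-OE replicate 3 was close to NC. UGT1A9, which acts on bulky phenols and is abundant in liver and kidney, had 6.87, 0 and 2.39 in NC against 2.4, 0 and 0 in PON1-OE. UGT1A5, an enzyme of little known activity, had 2.27, 0 and 0 in NC against 0, 2.35 and 0 in PON1-OE. No fold change is given for these genes, which did not pass the filter on low counts.

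**Figure D3:**
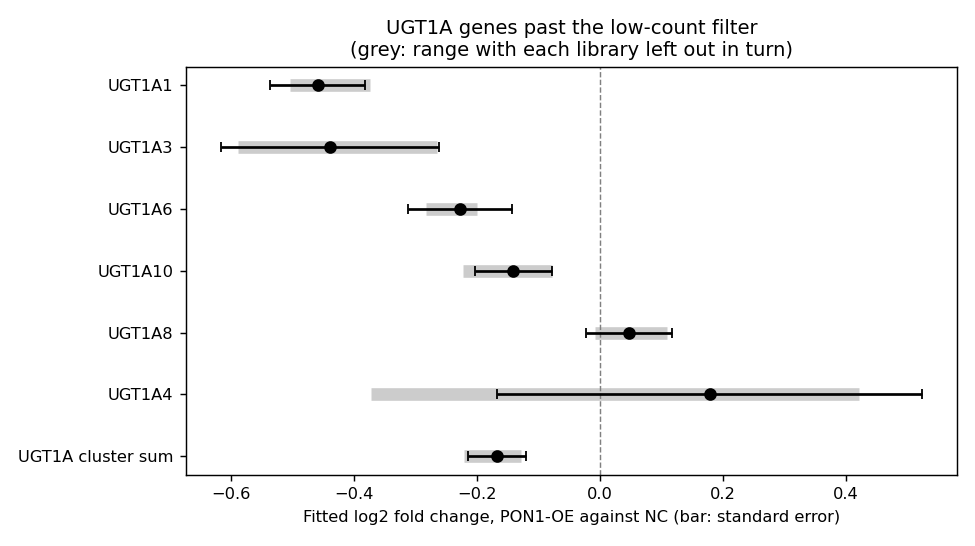
Fitted log2FC of PON1-OE against NC (horizontal axis, 0 means no difference) for the 6 members that passed the filter and for the cluster sum; points are the fitted values, black bars their standard errors, and grey bands the range with each library left out in turn. The bands of UGT1A1, UGT1A3, UGT1A6, UGT1A10 and the sum stay below 0, while those of UGT1A8 and UGT1A4 span it. For UGT1A1, UGT1A3, UGT1A6 and the sum, whose groups did not overlap, the bands could hardly cross 0.

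Divided by the length of the reference transcript, the levels in NC were ordered UGT1A10 (51.4 ± 4.07 CPM per kb, SD, n = 3), UGT1A1 (16.3 ± 0.547), UGT1A8 (16.2 ± 1.34), UGT1A6 (8.75 ± 0.586), UGT1A3 (2.32 ± 0.0695), UGT1A4 (0.593 ± 0.0575) and UGT1A7 (0.224 ± 0.0198), with UGT1A9 and UGT1A5 last. UGT1A1 and UGT1A8 overlapped and so did UGT1A9 and UGT1A5. All other neighbours in this order had separate ranges over the 3 NC libraries. In PON1-OE, UGT1A8 (16.7 ± 0.334 CPM per kb) came before UGT1A1 (11.8 ± 1.25). With reads divided as in the deposited values, the enzymes known from the gut made up most of the cluster's RNA in this line. The abundant liver enzyme UGT1A9 was close to 0. Its first exon was identical to that of UGT1A8 at 91.0% of aligned positions and to that of UGT1A10 at 90.4%. This order therefore carries the uncertainty of how reads were divided.

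The division of the summed counts can be compared without any scaling between libraries. UGT1A10 held 53.5%, 52% and 55.1% of the cluster in NC against 53.7%, 56.7% and 53.3% in PON1-OE, so its share overlapped. UGT1A1 held 17.2%, 18.1% and 15.3% in NC against 14.9%, 13.5% and 12.7% in PON1-OE, lower in every PON1-OE library (mean 16.8 ± 1.39% against 13.7 ± 1.11%, SD, n = 3 each). UGT1A8 held 15.7%, 17.6% and 17.3% in NC against 19.9%, 18.1% and 21.2% in PON1-OE, higher in every PON1-OE library. Its share was higher although its own level differed by less than its error. UGT1A6 held 9.39 ± 0.458% in NC and 9.03 ± 0.568% in PON1-OE, with overlap.

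**Figure D4:**
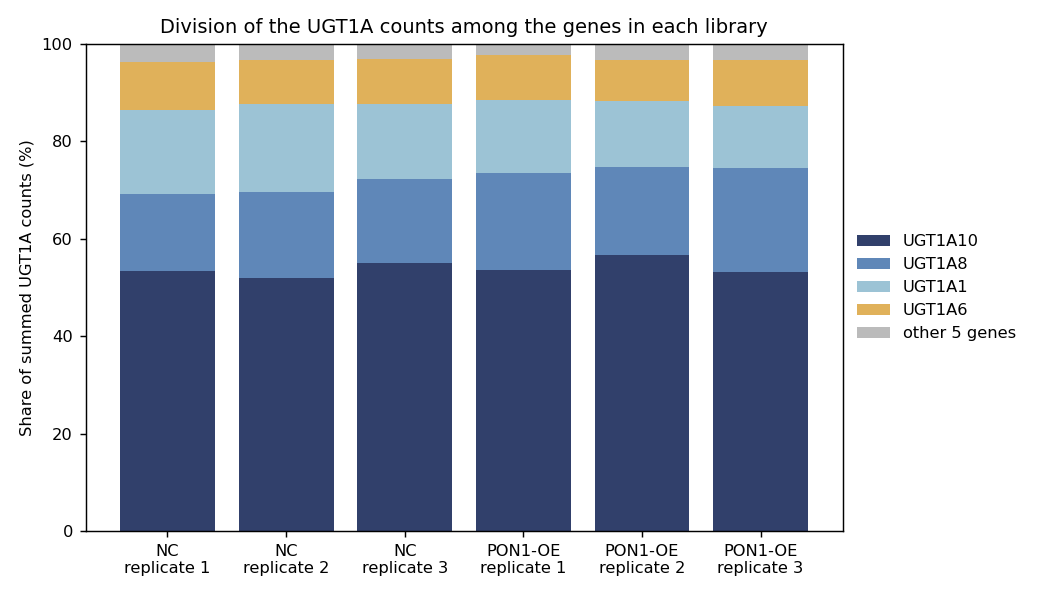
Share of the summed UGT1A counts (%) held by UGT1A10, UGT1A8, UGT1A1, UGT1A6 and the other 5 genes together in each of the 6 libraries. The UGT1A1 band narrows from 15.3% to 18.1% in NC to 12.7% to 14.9% in PON1-OE, and the UGT1A8 band widens from 15.7% to 17.6% to 18.1% to 21.2%.

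The ratio of UGT1A1 to UGT1A8 counts was 1.09, 1.03 and 0.884 in the NC libraries and 0.753, 0.748 and 0.601 in the PON1-OE libraries. These ranges were separate. The ratio of UGT1A1 to UGT1A10 was 0.321, 0.347 and 0.278 in NC against 0.278, 0.239 and 0.239 in PON1-OE, where the closest libraries were equal to 3 digits. The ratio of UGT1A10 to UGT1A8 overlapped between the groups, at 2.96 to 3.4 in NC and 2.51 to 3.14 in PON1-OE. All of these ratios compare members within the cluster and share the uncertainty of how reads were divided among its genes.

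Promoters are where the members differ in regulation, since each first exon has its own. RefSeq windows from 250 bases before to 50 bases after a start (GRCh38.p14) were matched for 8 members, with 9 starts in all. UGT1A10 was not matched. Each window was searched on both strands for GCGTG, the core bound by the aryl hydrocarbon receptor AHR, which was in 36.5% of all 35116 promoters in the table. UGT1A3, UGT1A7, UGT1A8, UGT1A9 and the upstream start of UGT1A6 each had 1 AHR core, UGT1A4 had 2, and UGT1A1, UGT1A5 and the downstream start of UGT1A6 had none in this window. The core of UGT1A3 and 1 of the 2 of UGT1A4 lay after the start, at the end of the window. A match is a match of letters and not evidence of binding. The 60 bases around the match are shown in lower case with the core in capitals for UGT1A6 (chr2:233691474-233691533, plus strand), whose PON1-OE libraries were all below NC, and for UGT1A8 (chr2:233617573-233617632, plus strand), whose groups overlapped.
UGT1A6: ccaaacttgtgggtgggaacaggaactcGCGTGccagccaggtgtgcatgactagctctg
UGT1A8: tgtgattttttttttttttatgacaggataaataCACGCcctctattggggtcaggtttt

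The core of UGT1A6 begins 200 bases before its upstream start. The reference transcript of UGT1A6 used above begins at 233692866, inside the window of the downstream start, which had no core. The counts are per gene and do not tell these starts apart. The core of UGT1A8, read here as its reverse complement, begins 26 bases before the start.

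The genes around the UGT1A enzymes, which are not among the members, were tested. Lists written by hand with earlier results of these data known held 72 genes for other UGT enzymes, heme breakdown, bilirubin transport, UDP-glucuronic acid, transcription factors of the locus and their other targets. Of these, 52 passed the filter, and none reached an adjusted p under 0.05 (edgeR, quasi-likelihood, adjusted by Benjamini-Hochberg over 11958 genes), a threshold at which 0.677% of all genes tested were called. With DESeq2 in place of edgeR, 2 of them passed, AHR and UGDH. The share of all genes that DESeq2 called is not given here. An unadjusted p under 0.05 was found for 8 of the 52 (15.4%), beside 11.1% of all genes tested. All 8 were lower in PON1-OE, and 5.17% of all genes tested had such a p and were lower. Since the lists were written with earlier results known, nothing is read from these shares. In direction 31 were higher and 21 lower, with a median log2FC of 0.02, against −0.0025 over all genes tested.

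Bilirubin is made from heme in steps that heme oxygenase and biliverdin reductase carry out. All 5 genes of this list were measured and tested. All were higher in direction, with a median log2FC of 0.05, and none passed the test. Of all genes tested, 51% had a fitted log2FC below 0. The inducible heme oxygenase HMOX1 was at 251 ± 7.10 CPM in NC and 263 ± 26.4 in PON1-OE (SD, n = 3 each), with a log2FC of 0.07 and an adjusted p of 0.705. The biliverdin reductase BLVRB (log2FC 0.05, adjusted p = 0.759), HMOX2 (log2FC 0.07, adjusted p = 0.654) and POR, which supplies electrons to heme oxygenase (log2FC 0.03, adjusted p = 0.831), overlapped between the groups. The enzymes upstream of UGT1A1 were thus abundant in this line, and no difference in their RNA passed the test.

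Conjugated bilirubin leaves the hepatocyte through the export pump ABCC2 toward bile and through ABCC3 toward blood. ABCC2 was at 346 ± 15.6 CPM in NC and 343 ± 13.2 in PON1-OE (SD, n = 3 each, log2FC −0.01, adjusted p = 0.960), and ABCC3 at 113 ± 4.51 and 118 ± 5.89 (log2FC 0.07, adjusted p = 0.640). ABCG2, an exporter of many conjugates, was at 112, 123 and 128 CPM in NC against 106, 110 and 107 in PON1-OE. All of its PON1-OE libraries were below NC, but the adjusted p was 0.176 (log2FC −0.17, standard error 0.0504). Of the 10 genes on this list 2, an uptake carrier and a binding protein, had no count in any library, and 6 were tested, with a median log2FC of 0.0028, and none was called.

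UDP-glucuronic acid, the sugar donor, is made by UGDH from the UDP-glucose that UGP2 provides. UGDH was at 549, 529 and 554 CPM in NC against 493, 498 and 486 in PON1-OE, so every PON1-OE library was lower. Its fitted log2FC was −0.14 with a standard error of 0.0339 and an adjusted p of 0.0518, just above the threshold. The adjusted p ranged from 0.00336 with DESeq2 to 0.334 without NC replicate 3. UGP2 (log2FC 0.03, adjusted p = 0.908), PGM1 (log2FC −0.01, adjusted p = 0.961) and UXS1, which turns UDP-glucuronic acid into UDP-xylose (log2FC 0.04, adjusted p = 0.829), overlapped. All 7 genes of the list were tested, 5 were higher in direction, and the median log2FC was 0.03.

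Transcription factors that act at UGT1A promoters include AHR with its partner ARNT, NRF2 (NFE2L2) and nuclear receptors. Of 18 such genes 15 were tested, 7 higher and 8 lower in direction with a median log2FC of −0.02, and none was called. AHR was at 95.9, 103 and 96.6 CPM in NC against 88.8, 82.7 and 86.6 in PON1-OE, lower in every PON1-OE library, with a log2FC of −0.20 (standard error 0.05) and an adjusted p of 0.0833. That p ranged from 0.0294 without the filter to 0.256 without PON1-OE replicate 3. ARNT (log2FC −0.02, adjusted p = 0.896), RXRA (log2FC −0.04, adjusted p = 0.840) and NFE2L2 (log2FC 0.04, adjusted p = 0.821) overlapped. Of the 3 genes not tested, 2 had no count in any library once the values were rounded. PPARA (log2FC −0.26, adjusted p = 0.225), the bile acid receptor NR1H4 (log2FC −0.71, adjusted p = 0.212) and FOXA1 (log2FC −0.27, adjusted p = 0.443), named after their values were seen, had an unadjusted p under 0.05. NR1H4 was low, at 2.93 to 4.69 CPM in NC and 2.13 to 2.36 in PON1-OE, and the standard error of its log2FC was 0.229.

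Other known targets of AHR, PXR, CAR and NRF2 were listed as well. Of 19, 16 were tested, 10 higher and 6 lower in direction with a median log2FC of 0.01, and none was called. The most abundant were targets of NRF2. TXNRD1, thioredoxin reductase, was at 4751 ± 31.9 CPM in NC and 4724 ± 105 in PON1-OE (SD, n = 3 each, adjusted p = 0.946), and NQO1 at 860 ± 27.0 and 872 ± 46.7 (adjusted p = 0.901). SRXN1 (log2FC 0.09, adjusted p = 0.457) did not pass the test either. The AHR targets CYP1A1 (log2FC −0.23, adjusted p = 0.344) and CYP1B1 (log2FC −0.19, adjusted p = 0.193), named after their values were seen, overlapped between the groups. TIPARP (log2FC 0.02) and ALDH3A1 (log2FC 0.01), on the same list and also named after their values were seen, overlapped as well. AHRR, the repressor of AHR, also named after its values were seen, had the highest log2FC of the list at 0.92 (adjusted p = 0.466), and NC replicate 2, at 0.0553 CPM against at least 2.40 in every other library, stood apart from the rest.

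**Figure D5:**
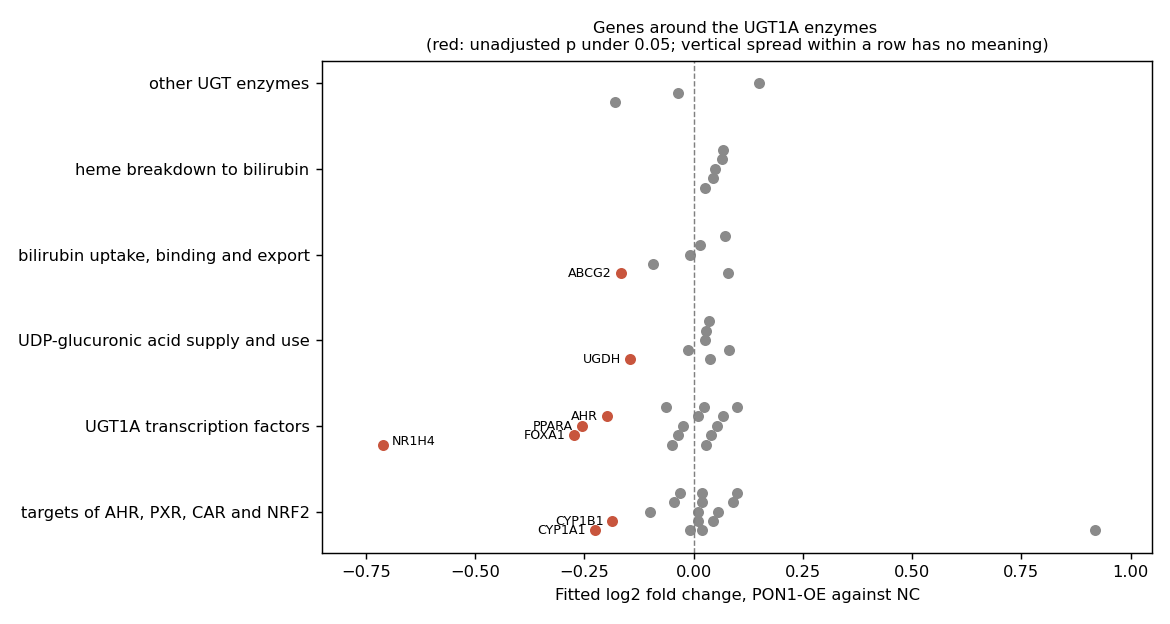
Fitted log2FC of PON1-OE against NC (horizontal axis) for the 52 tested genes of 6 lists around the UGT1A enzymes (rows); each point is a gene, and red points with names had an unadjusted p under 0.05. All 8 named genes lie below 0 and none had an adjusted p under 0.05, while the 5 heme breakdown genes lie between 0.03 and 0.07.

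Other enzymes of the UGT families were examined beside the cluster. Of 13 genes of the UGT2, UGT3 and UGT8 families 4 had no count in any library and 3 were tested, with a median log2FC of −0.04 and no call. UGT2B7, which conjugates steroids and opioids, was at 26.9 ± 0.592 CPM in NC and 26.3 ± 1.46 in PON1-OE (SD, n = 3 each, log2FC −0.04, adjusted p = 0.910). UGT2A3 (log2FC −0.18, adjusted p = 0.835) and UGT2B10 (log2FC 0.15, adjusted p = 0.943) were low and overlapped.

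Of the neighbours on chromosome 2, 3 were tested and none was called. DGKD (log2FC 0.08, adjusted p = 0.751) and USP40 (log2FC −0.03, adjusted p = 0.930) overlapped between the groups. HJURP, which loads the centromeric histone, was at 23.9, 25.5 and 22.9 CPM in NC against 29.3, 29.1 and 27.3 in PON1-OE, with every PON1-OE library above NC, a log2FC of 0.24 and an adjusted p of 0.190. MROH2A, TRPM8 and SPP2 did not pass the filter. DNAJB3 was not analysed here.

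Over the 6 libraries, the genes whose log2 CPM was most like the cluster sum were DEAF1 (Pearson r = 0.993), STARD7 (0.992), BAZ2A (0.992), MAST3 (0.988) and HNRNPF (0.988), out of 11952 genes compared. These are descriptions over 6 points that share library and group, given without a p. They were picked as the highest of 11952 values, so a high r was built into the choice. DEAF1, a transcription factor, was at 44.1, 43.7 and 45.1 CPM in NC against 41.9, 43.2 and 41.2 in PON1-OE, a far narrower range than that of the cluster.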

How the data were processed

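Poly(A) RNA of 3 PON1-OE and 3 NC libraries was sequenced. The authors deposited 1 table of estimated counts per gene without normalization. The submitters' processing notes name Bowtie2 2.2.8, HISAT2, StringTie 1.3.1 and DESeq2 without roles. The counting step, strand setting, genome build and annotation are not given in the sources used here. Values were rounded to whole numbers, which the design had not foreseen, filtered with filterByExpr (minimum count 10), scaled by TMM and fitted in R 4.3.3 with edgeR 4.0.16 (glmQLFit, glmQLFTest), without covariates, with Benjamini-Hochberg adjustment. For the cluster, the 9 rows were replaced by their sum. The fit was tested on simulated data. Alternatives used DESeq2 1.42.0, limma 3.58.1 (voom), RLE size factors, other filters and thresholds, a replicate block and each library left out. Sequences came from GENCODE v29 and RefSeq, and first exons were aligned with Biopython 1.88.

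Named genes were all members, list genes with an adjusted p under 0.05, up to 4 genes per list with the highest mean CPM, neighbours of the locus, PON1, marker genes and the 5 genes most like the cluster sum. Further genes are marked in the text as named after their values were seen. Some genes that this rule covers, and a promoter motif that was also searched, are not reported here. Members and lists were chosen with earlier results of these data known. As nothing states that the libraries of a group are separate cultures, p-values measure only the spread between these libraries. Totals of 15706672 to 17948383 estimated counts give a floor of 3 counts at 0.166 to 0.192 CPM.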

Additional observations from a re-analysis of the deposited data

How the results depend on the processing

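The cluster sum kept its sign under all 13 alternatives, between −0.22 (without PON1-OE replicate 2) and −0.13 (without NC replicate 3). Every PON1-OE sum lay below every NC sum, so leaving out a library could hardly change the sign. The other settings used the same libraries. Of the lists around the UGT1A enzymes, in place of 0 called genes there were 3 without the filter on low counts (AHR, UGDH and CYP1B1), 2 with DESeq2 (AHR and UGDH) and 8 at an unadjusted p under 0.05. With single libraries left out the count ranged from 0 to 2, with UGDH and CYP1B1 called without NC replicate 2 and UGDH alone without PON1-OE replicate 2. The cause was not tested. Shares of all genes called without the filter, with DESeq2 or with libraries left out are not given here. Nothing is therefore read from the counts at those settings. UGT1A4 moved from 0.18 to −0.37 without PON1-OE replicate 2. With a replicate block the sum was −0.17 and 0 list genes were called, so it changed no call. Deviations from the group means of same-numbered libraries correlated at 0.0173, −0.0231 and 0.0205, so no shared deviation was seen between them. What the replicate numbers stand for is not stated in the sources used here. Depth limits UGT1A5, UGT1A7 and UGT1A9, which were near the floor of 3 counts.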
